A study of Mus musculus with 24 samples.

Results

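CA3 pyramidal neurons are the population named Exc-CA3 in the deposited tables. They were taken as the columns that carry this cell type name, which are 4 of 68 columns (17 cell types) in the single-nucleus RNA sequencing (snRNA-seq) table and 4 of 60 columns (15 cell types) in the single-nucleus ATAC sequencing (snATAC-seq) table. Each column is a sum over the nuclei of 1 cell type in 1 library. Over all libraries Exc-CA3 held 2191 of 30880 nuclei in snRNA-seq (7.10%) and 4008 of 27206 nuclei in snATAC-seq (14.7%). The tissue was ventral hippocampus dissected from male mice aged 10 to 16 weeks, of the inbred strains C57BL/6J (B6) and DBA/2J (labelled DBA, here D2), with no treatment in either. Each strain had 2 libraries per assay and each library pooled about 2 animals, so differences between libraries mix animals and preparation. Nuclei for snRNA-seq were sorted to a set mixture of neuronal (NeuN-positive) and other nuclei, which was not done for snATAC-seq, so the 2 shares cannot be compared. Libraries carry the numbers of the column names (2 and 3), and values are given throughout in the order B6 library 2, B6 library 3, D2 library 2, D2 library 3.

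Field CA3 lies between the dentate gyrus and CA1. Its pyramidal neurons receive the axons of granule neurons, the mossy fibres, on large spines near the cell body, they excite each other through recurrent collaterals, and their Schaffer collaterals form a main input to CA1. Kainate receptors and nectin adhesion proteins are known parts of the mossy fibre synapse, and the recurrent network makes the field prone to bursting.

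The Exc-CA3 columns summed to 7195661, 5887083, 5581731 and 4267129 transcript counts, and to 17747108, 14193352, 16562011 and 21265101 chromatin counts. Levels are in CPM, the counts of a symbol scaled to a total of 1000000 over the symbols counted in both strains, and a CPM value compares 1 gene between libraries, not 1 gene with another. Across symbols, log2 levels of the B6 pair of libraries correlated at 0.989, those of the D2 pair at 0.987 and those of different strains at 0.926 to 0.936, which is a description since symbols are not independent.

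The transcript tables of the strains do not hold the same symbols, and this touches every strain difference below. Of 33902 symbols, 21301 had counts in both strains, 1743 in B6 only and 6544 in D2 only. Some of these are 1 gene under an older and a newer name. March1 stood at 1476, 1468, 0 and 0 CPM, and Marchf1, its newer name, at 0, 0, 1128 and 1206 CPM. Sept3 stood at 58.4 and 61.3 CPM in B6 and at 0 in D2, where Septin3 stood at 76.7 and 77.6 CPM. The mitochondrial ribosomal RNAs mt-Rnr1 (0, 0, 769.8 and 495 CPM) and mt-Rnr2 (0, 0, 2223 and 1555 CPM) were counted only in D2. Such symbols were left out of the tests, but a symbol counted in both strains can still overlap one of them. Among 14582 tested symbols with a single entry in the annotation, 9.55% overlapped on the same strand a symbol counted in 1 strain only, against 23.4% of those lower in D2 and 4.31% of those higher in D2. What part of a strain difference goes with the gene lists was not tested beyond these counts. Sums with overlapping symbols are given below as values only, since reads counted for no symbol are not in them.

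The levels of 12 listed markers of CA3 are given for Exc-CA3 alone, and 11 of them passed the filter on low counts used below. No other cell type was compared and the authors named the clusters from these transcripts, so the levels do not test the label. Nectin3 encodes the adhesion protein on the CA3 side of mossy fibre contacts, and it stood at 254, 246, 268 and 262 CPM. Bok, of the BCL-2 family, stood at 14.7, 17.3, 15.9 and 14.3 CPM, and Iyd, which encodes iodotyrosine deiodinase, at 6.44, 6.85, 9.82 and 10.2 CPM. For Iyd both D2 libraries were above both B6 libraries, and for Bok the strains overlapped. Grik4, a kainate receptor subunit, stood at 887, 803, 955 and 875 CPM, and Kcnq5, a subunit of the M-type potassium channel, at 3659, 3471, 3942 and 3966 CPM. Spock1, a proteoglycan, stood at 1000.1, 912, 977 and 972 CPM, and Cpne4, a calcium-binding copine, at 639, 622, 649 and 567 CPM. These genes varied little among the 4 libraries. Prkcd, a protein kinase C gene, was near absent, at 0.980, 0.856, 0.741 and 0.243 CPM.

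**Figure D1:**
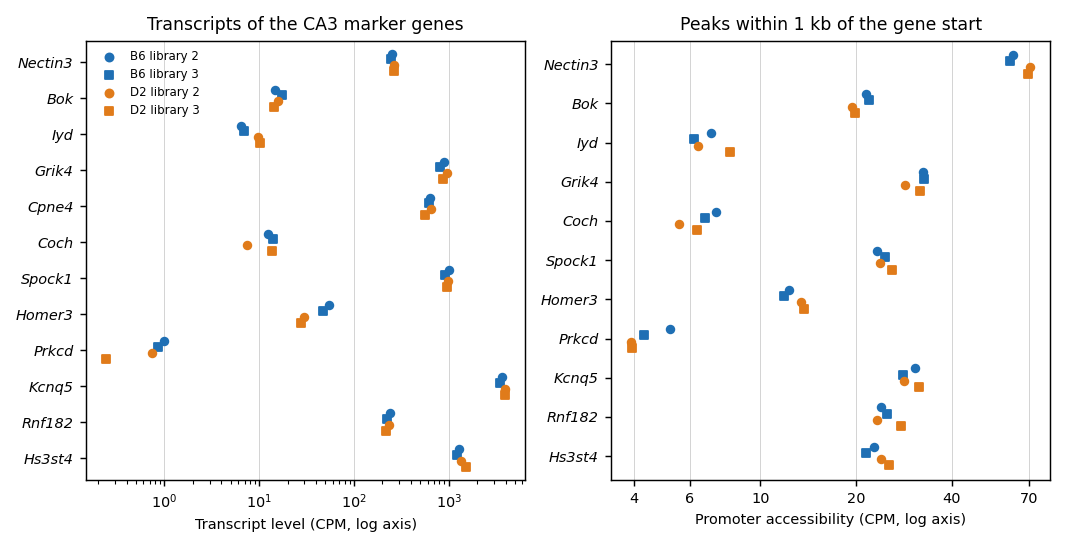
Left, transcript level (CPM, log axis) of the 12 CA3 marker genes, and right, accessibility (CPM, log axis) of the peaks within 1 kb of the gene start for the 11 of them with such a peak. Each point is 1 library, blue is B6, orange is D2, circles are library 2 and squares library 3. The strains lie close together for most markers, whereas Homer3 transcripts are at 47.4 and 54.0 CPM in B6 and at 27.6 and 30.0 CPM in D2.

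Markers of the neighbouring excitatory cells were uneven within each list. The CA1 list summed to 125 to 141 CPM over its 8 genes, with Man1a at 81.7 to 88.4 CPM, Ndst4 at 13.6 to 29.6 CPM and Pou3f1 at 0.560 to 1.11 CPM. The dentate granule list summed to 59.9 to 84.6 CPM over 8 genes, with Dock10 at 19.1 to 40.4 CPM, Trpc6 at 26.9 to 40.5 CPM and Prox1, which specifies granule neurons, at 1.67 to 3.42 CPM. The CA2 list summed to 79.5 to 102 CPM, with Necab2 at 34.9 to 39.5 CPM, Cacng5 at 0.140 to 1.48 CPM and Ntf3 at 0.185 to 1.96 CPM. Among the 6 mossy cell genes, which summed to 47.0 to 62.0 CPM, Calcrl was at 26.3, 25.7, 15.9 and 21.3 CPM and Drd2 at 2.78 to 3.42 CPM. Whether CA2 or hilar mossy cell nuclei are counted within Exc-CA3 was not tested, and no column is named for either. Slc17a7, the vesicular glutamate transporter of these neurons, was at 374, 387, 397 and 400.4 CPM, and the inhibitory marker Gad2 at 1.12 to 2.60 CPM.

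**Figure D2:**
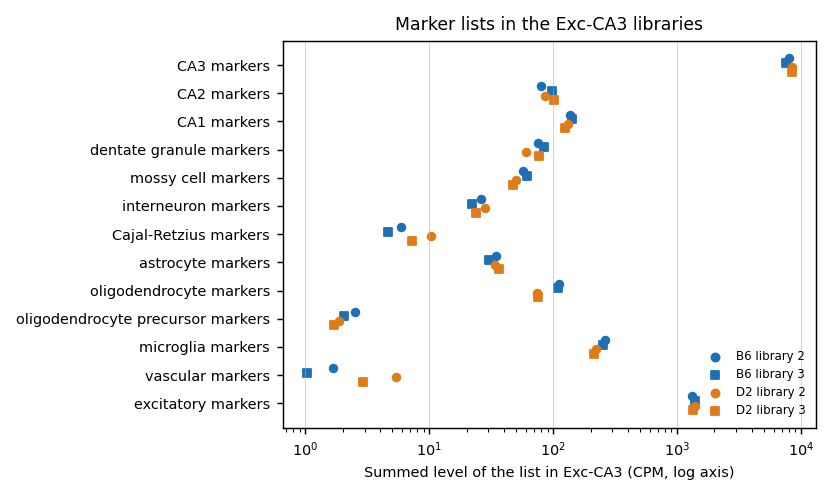
Summed level (CPM, log axis) of each marker list in Exc-CA3, with 1 point per library (blue B6, orange D2, circles library 2, squares library 3). The lists differ in size and gene length, so points are compared within a row: the oligodendrocyte list is at 110.1 and 112 CPM in B6 and at 74.1 and 75.2 CPM in D2, and the CA3 list at 7602 to 8474 CPM.

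Transcripts of glial marker genes were counted, and some differed with strain. The oligodendrocyte list summed to 112, 110.1, 74.1 and 75.2 CPM, and the microglial list to 262, 251, 220.2 and 214 CPM, most of it P2ry12. P2ry12 lies antisense to Med12l, and whether counting used strand is not given, so reads of Med12l may be included. Of the same list Csf1r was at 1.70 to 3.77 CPM and Cx3cr1 at 23.4 to 35.6 CPM, where the strains overlapped. The Cx3cr1 entry overlaps Gorasp1 and Csrnp1 on the same strand and Wdr48 and others on the other strand. Reads of these genes may be included in it. The astrocyte list summed to 30.1 to 36.4 CPM, the interneuron list to 22.3 to 28.4 CPM, the oligodendrocyte precursor list to 1.70 to 2.52 CPM, the Cajal-Retzius list to 4.62 to 10.4 CPM with Lhx1 at 0 in all 4 libraries, and the vascular list to 1.03 to 5.38 CPM with Cldn5 at 0.140 to 0.243 CPM. B6 was above D2 with no overlap in the oligodendrocyte and microglial lists, and in the precursor list at its low level. In the astrocyte list the strains overlapped. The part of these cells in the results below was not tested.

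Strain was tested with edgeR's quasi-likelihood test of D2 minus B6 over all 14802 symbols that passed a filter on low counts, with Benjamini-Hochberg adjustment and a threshold of 0.05. It called 3216 symbols, 21.7%, of which 1438 were higher in D2 (9.71%) and 1778 lower (12%). With all symbols, including those counted in 1 strain, 5241 passed and 59.7% of them were higher in D2, in place of 44.7%. DESeq2 called 1340. The changes were mostly small: of the symbols that passed, 413 rose and 624 fell by at least 1 on the log2 scale. Fold changes are given after TMM scaling, which lowered the difference D2 minus B6 by 0.06 (log2, median) against the CPM values. The libraries are pools, and 2 against 2 leave 2 residual degrees of freedom, so the test borrows its spread from all symbols.

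Of the 12 CA3 markers, 11 were tested and 1 passed, Homer3, which was lower in D2. Homer3 encodes a scaffold protein of the postsynaptic density that binds group I metabotropic glutamate receptors. It stood at 54.0 and 47.4 CPM in B6 and at 30.0 and 27.6 CPM in D2, without overlap. It fell by 0.88 on the log2 scale (SE 0.13, edgeR adjusted p = 0.000200, n = 2 libraries a strain), and it passed under all 9 alternatives, at adjusted p from 8.2e-07 to 0.00127. The other 10 had log2 fold changes of -0.42 (Coch) to 0.53 (Iyd, SE 0.22, edgeR adjusted p = 0.105). The median over the 11 was -0.04, and over all symbols 0.01. A count of 1 of 11 (9.09%) is under the 21.7% of all symbols and 26.7% of symbols of at least 20 CPM. Without D2 library 3 Coch passed at a log2 fold change of -0.87, and without D2 library 2 Hs3st4 passed at 0.21.

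Of 22 genes of the mossy fibre synapse, all tested, 2 passed and both were lower in D2 (9.09%, against 21.7% of all symbols). Nectin1, the partner of Nectin3 on the mossy fibre side, stood at 61.6, 58.9, 42.6 and 46.6 CPM. It fell by 0.50 on the log2 scale (SE 0.11, edgeR adjusted p = 0.00417), and passed in all 9 alternatives (0.00102 to 0.0451). Nectin3 itself had a log2 fold change of 0.02 (SE 0.08, edgeR adjusted p = 0.905). Itpr1, the calcium release channel of the endoplasmic reticulum, stood at 67.9, 70.2, 44.7 and 57.5 CPM and fell by 0.51 (SE 0.12, edgeR adjusted p = 0.00613). Without D2 library 2 it no longer passed (log2 fold change -0.35, adjusted p = 0.0911, edgeR, over a range of 0.000192 to 0.0911 in 9 alternatives).

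None of the kainate receptor genes passed. Grik2, the subunit that assembles with Grik4 and Grik5 products, stood at 1239, 1222, 1179.8 and 1155 CPM (log2 fold change -0.14, SE 0.07, edgeR adjusted p = 0.146). Grik5 stood at 164, 161, 172 and 166 CPM, and Grik1 at 13.0 to 17.6 CPM with overlap. Grik3 stood at 9.24, 8.90, 11.9 and 13.8 CPM, higher in both D2 libraries (log2 fold change 0.43, SE 0.20, edgeR adjusted p = 0.146). Neto1, an auxiliary subunit of kainate receptors, stood at 619, 628, 724 and 752 CPM, higher in both D2 libraries, with a log2 fold change of 0.18 (SE 0.07) that did not pass (edgeR adjusted p = 0.0784). Cdh9, a cadherin of mossy fibre contacts, stood at 446, 409, 571 and 485 CPM (log2 fold change 0.24, SE 0.09, edgeR adjusted p = 0.0745) and passed without D2 library 3 at 0.38 and with a replicate block at 0.24. Among AMPA receptor genes, Gria2 stood at 2905, 3071, 3229.5 and 3122 CPM and Gria1 at 2419, 2459.9, 2439.5 and 2309 CPM. The metabotropic receptor gene Grm5 had a log2 fold change of -0.15 and passed without D2 library 2 (-0.19) and with a replicate block (-0.15). Gria4, a further AMPA receptor gene, passed with no filter beyond 1 count (-0.24), with a replicate block (-0.23) and with all symbols (-0.23). Afdn, the nectin-binding scaffold, passed without B6 library 2 (-0.30). Of the 22 genes, 9 had an unadjusted p under 0.05, and the median log2 fold change was -0.11.

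Of 21 genes of intrinsic excitability, all tested, 1 passed (4.76%, against 21.7% of all symbols). Kcnd2, the A-type potassium channel subunit Kv4.2, stood at 1209.5, 1199.5, 1034 and 1095 CPM and fell by 0.24 on the log2 scale (SE 0.07, edgeR adjusted p = 0.0151). It lost the call when B6 library 2 was left out (-0.23 on the log2 scale, edgeR adjusted p = 0.0692, with 0.00369 to 0.0692 over 9 alternatives). Same-strand symbols counted only in D2 lie in Kcnd2, at 19.3 and 23.0 CPM in sum. With them the D2 values were 1053 and 1118 CPM, under both B6 libraries, and were not tested. Kcnq3, which joins Kcnq5 in M-type channels, stood at 725, 649, 651 and 560.0 CPM and did not pass (log2 fold change -0.25, SE 0.09, edgeR adjusted p = 0.0659), but it passed in 5 of 9 alternatives, namely without D2 library 2 (-0.38), without B6 library 3 (-0.33), with no filter beyond 1 count (-0.26), with a replicate block (-0.25) and with all symbols (-0.24). Hcn2, a pacemaker channel gene, passed only without B6 library 2 (0.41), and Kcnh7, an ERG-type channel gene at 42.5, 66.2, 39.3 and 65.2 CPM, only without D2 library 3 (-0.49). The calcium channel gene Cacna1e stood at 611, 587, 686 and 720.3 CPM (log2 fold change 0.17, SE 0.07, edgeR adjusted p = 0.108), and the sodium channel gene Scn2a at 293, 312, 335 and 364 CPM. The median over the list was -0.06.

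Of 25 transcription factor genes, 23 were tested and 6 passed (26.1%, against 21.7% of all symbols), 3 higher and 3 lower in D2. Neurod6, a basic helix-loop-helix factor of pyramidal neurons, stood at 62.0, 52.4, 96.2 and 84.6 CPM. It rose by 0.60 (SE 0.12, edgeR adjusted p = 0.00195), was higher in 2 of 2 D2 libraries, and passed in all 9 alternatives (4.2e-06 to 0.0181). Its relative Neurod2 stood at 21.4, 28.6, 32.8 and 35.6 CPM (log2 fold change 0.40, SE 0.15, edgeR adjusted p = 0.0698) and passed without B6 library 3 (0.60), with a replicate block (0.40) and with all symbols (0.40). Satb1, a chromatin organizer, stood at 33.3, 31.3, 22.8 and 14.6 CPM and fell by 0.82 (SE 0.18, edgeR adjusted p = 0.00396), passing in all 9 alternatives (6.9e-07 to 0.0282). With 5 symbols that lie in Satb1 on the same strand and were counted only in D2, its D2 sums were 29.1 and 20.6 CPM. These sums were under both B6 libraries and were not tested. Foxp1, a forkhead factor, stood at 372, 352, 207 and 233 CPM and fell by 0.78 (SE 0.08, edgeR adjusted p = 8.3e-06). Gm20696, which overlaps Foxp1 on the same strand, was counted only in D2, at 122 and 132 CPM. Summed with it, the locus stood at 372, 352, 329.6 and 366 CPM, and the strains overlapped.

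The other 3 calls depended on the setting. Etv1, an ETS factor, stood at 89.7, 109, 119 and 166 CPM (log2 fold change 0.45, SE 0.13, edgeR adjusted p = 0.0226) and did not pass without B6 library 2 (0.32), without D2 library 3 (0.22) or with DESeq2, at adjusted p from 1.7e-06 to 0.239 over 9 alternatives. St18, a zinc finger factor, stood at 173, 160.0, 216 and 208 CPM (0.28, SE 0.09, edgeR adjusted p = 0.0304), and did not pass without B6 library 3 (0.22), without D2 library 2 (0.24) or with DESeq2, at 0.0157 to 0.185. Tshz2, a teashirt zinc finger factor, stood at 13.3, 14.4, 8.34 and 8.25 CPM and fell by 0.80 (SE 0.20, edgeR adjusted p = 0.0106), with the call lost only with DESeq2 (range 0.00427 to 0.158). Zbtb20, a factor needed for hippocampal pyramidal identity, stood at 3199, 3056, 3221 and 3208 CPM (log2 fold change -0.03, SE 0.06). The glucocorticoid receptor gene Nr3c1 stood at 28.7, 36.6, 27.2 and 26.9 CPM and the mineralocorticoid receptor gene Nr3c2 at 858, 849.8, 802 and 868 CPM. Nr3c1 did not pass (-0.32, SE 0.14, edgeR adjusted p = 0.127), but did without B6 library 2 (-0.49). Zfpm2 (-0.21, edgeR adjusted p = 0.0544) and Trps1 (-0.24, edgeR adjusted p = 0.134) did not pass. Both passed without D2 library 2 (-0.27 and -0.47), with no filter beyond 1 count (-0.23 and -0.25) and with a replicate block (-0.21 and -0.25), and Zfpm2 also with all symbols (-0.21). Nr4a2 stood at 8.68, 20.5, 7.79 and 14.6 CPM with overlap and did not pass (-0.46, SE 0.34, edgeR adjusted p = 0.381). It passed without B6 library 2 (-0.98) and without D2 library 3 (-0.91), and reached 0.25 in another alternative.

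**Figure D3:**
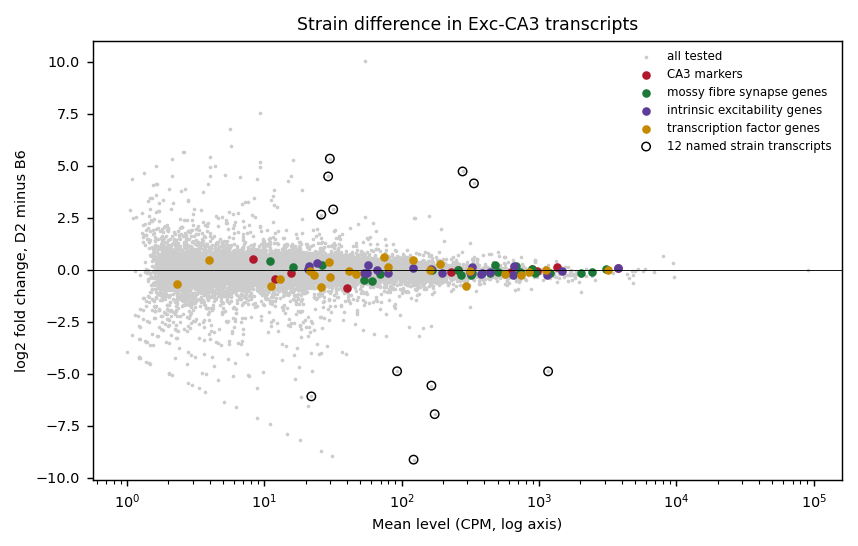
Strain difference (log2 fold change, D2 minus B6) of each tested symbol in Exc-CA3 against its mean level (CPM, log axis). Grey points are all 14802 symbols, coloured points the 4 gene lists and open circles the 12 transcripts with the largest changes by the naming rule. The listed genes lie between -0.88 and 0.60, and the open circles reach -9.12 and 5.35.

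Glial and other markers were tested in the same fit. Of the 4 oligodendrocyte genes 3 were lower in D2, among them Mobp (-0.77) and Mbp (-0.47), which encode myelin proteins. P2ry12, a purinergic receptor of microglia, was lower as well (-0.37, SE 0.08, edgeR adjusted p = 0.00615), though reads of Med12l on the other strand may not be separated from it. Mobp did not pass without B6 library 2 (-0.65) or D2 library 3 (-0.52), and neither Mobp nor Mbp passed with DESeq2. In the CA1, dentate granule and mossy cell lists 1 gene each was lower in D2: Ndst4, a heparan sulfate sulfotransferase (-0.85), Dock10, a guanine nucleotide exchange factor (-1.02), and Calcrl, a receptor of calcitonin family peptides (-0.56). Calcrl did not pass with DESeq2, without B6 library 2 (-0.54) or without D2 library 2 (-0.37), and Csf2rb2 passed without either of those libraries (-1.05 and -1.57), with no filter beyond 1 count (-0.82) and with a replicate block (-0.81). Dock10 stood at 35.8, 40.4, 19.1 and 20.1 CPM and passed in all 9 alternatives. On its strand 3 overlapping symbols were counted only in D2, at 1.11 and 0.728 CPM in sum. Trp73, a p53 family factor, was higher in D2 (2.18) at 1.40, 1.20, 6.86 and 5.58 CPM, while Reln of the same list had a log2 fold change of -0.67 (SE 0.39) and did not pass. Flt1, a vascular receptor gene, was higher in D2 (1.65) at 0.856 to 5.19 CPM, but not with DESeq2, without B6 library 3 (1.31) or without D2 library 2 (1.03). No gene of the 6 tested CA2, 4 interneuron or 3 astrocyte markers passed edgeR or DESeq2, and of these 13 genes 1, Pcp4 of the CA2 list, had an unadjusted p under 0.05. Of the 4 tested genes common to excitatory neurons Neurod6 passed, and the oligodendrocyte precursor markers were too low to test. Vit, of the CA2 list, passed without D2 library 2 (0.72).

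Among called symbols of at least 20 CPM with counts in every library and no overlap between strains, the largest strain differences were in symbols that are not CA3 markers. Schip1, a protein of axon initial segments, stood at 2276, 2103, 72.7 and 83.7 CPM. This was a 29.4-fold difference with the lowest p of all symbols (log2 fold change -4.88, SE 0.09, edgeR adjusted p = 5.8e-14). The read-through symbol Iqschfp and 2 others overlapping Schip1 were counted in D2 only, with 39.9 and 48.5 CPM in sum. Their part in the difference was not tested. Cox16, a cytochrome oxidase assembly factor, stood at 161, 187, 6.67 and 5.58 CPM and fell by 4.87. Rhbdl1, a rhomboid protease, stood at 43.7, 40.7, 0.927 and 0.243 CPM and fell by 6.08. In both the strains did not overlap. With Gm20498 and Gm3695, which overlap Cox16 on the same strand and were counted only in D2, its D2 sums were 13.2 and 11.9 CPM. These sums were under both B6 libraries and were not tested. Gm20683, which overlaps Rhbdl1 on the same strand, was counted only in D2 as well, at 0.185 and 0.485 CPM.

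Mitochondrial transcripts gave the other 3 of the 6 largest decreases by this rule, mt-Co2, mt-Co3 and mt-Atp6. Subunit gene mt-Co2 stood at 195, 279, 0.371 and 0.485 CPM and mt-Co3 at 276, 395, 3.15 and 2.43 CPM. The rule leaves out mt-Nd3 (29.7, 41.4, 0 and 0.243 CPM) and mt-Nd4l (15.8, 26.7, 0.185 and 0 CPM), which have 1 library without counts and were lower in D2 as well. So was mt-Co1, at 196, 288, 41.7 and 30.6 CPM. Others on the same genome did not pass: mt-Nd1 stood at 86.9, 126, 122 and 72.8 CPM and mt-Cytb at 113, 204, 160.0 and 113 CPM, with overlap. Of 13 mitochondrial symbols tested 6 were lower in D2 (46.2%, against 12% of all symbols), while all mitochondrial symbols together summed to 1437, 2152, 3722 and 2512 CPM through the ribosomal RNAs counted in D2 only. Without D2 library 2, mt-Nd1 (-0.63), mt-Nd2 (-0.68), mt-Nd4 (-0.81), mt-Nd5 (-0.74) and mt-Cytb (-0.56) passed too, and without B6 library 2 mt-Nd4 (-0.86), mt-Nd5 (-0.61), mt-Nd6 (-1.33) and mt-Cytb (-0.63). With no filter beyond 1 count mt-Nd4 (-0.53) and mt-Nd6 (-0.87) passed, as they did with a replicate block (-0.49 and -0.82), and mt-Nd4 passed with all symbols (-0.52).

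Higher in D2 by the same rule were Gm20324, Atp5o, Sv2c, Rnf121, Mlycd and Rap1gapos. Sv2c encodes a synaptic vesicle glycoprotein, and it stood at 2.38, 2.40, 54.7 and 58.9 CPM (log2 fold change 4.49, SE 0.18, edgeR adjusted p = 3.4e-10). Rnf121, a ubiquitin ligase, stood at 34.1, 35.1, 655 and 639 CPM, and Mlycd, malonyl-CoA decarboxylase, at 7.28, 7.19, 56.9 and 57.0 CPM. Atp5o, a subunit of ATP synthase, stood at 20.01, 19.0, 572 and 516 CPM, and a second row of that name with a suffix was counted only in D2, at 30.0 and 32.5 CPM. Gm20324 (1.54, 1.20, 66.5 and 52.4 CPM) and Rap1gapos (7.98, 5.65, 46.9 and 44.4 CPM) lie antisense to Tcf20 and Rap1gap. Whether counting used strand is not given in the sources used here, so reads of these partners may not be separated, and Tcf20 stood at 236, 234, 226 and 207 CPM.

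Antisense RNAs were called more often than coding genes. Of 1171 antisense symbols 31.9% passed, 70 higher and 304 lower in D2, and of 12341 protein-coding symbols 20.3% passed, 1230 higher and 1274 lower. Sense-intronic RNAs passed in 8.05% of 87. On chromosome X 13.9% of 468 symbols passed, the lowest share of the chromosomes with at least 20 tested symbols, and on chromosome 17 26.6% of 670, the highest of the nuclear ones. These shares are descriptions and were not tested against each other.

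Peaks passed at a smaller share than transcripts, but the filters and the counts per feature differ, so the 2 shares are not directly comparable. By the same test over 298129 peaks with at least 10 counts, 15008 passed, which is 5.03%, with 7740 more accessible in D2 (2.6%) and 7268 less (2.44%). The number rests on the libraries: it was 8179 without B6 library 2, 9263 without B6 library 3, 245 without D2 library 2 and 123 without D2 library 3, and DESeq2 gave 3642. By place, 7.22% of 22253 peaks at the start of a gene passed, 4.10% of 17036 exonic, 4.30% of 152021 intronic and 5.77% of 106819 intergenic peaks. Of the peaks at gene starts 1140 were higher and 466 lower, and their median log2 fold change was 0.08 against 0.00 over all peaks. Chromosome X had the lowest share here too, at 1.67% of 6123.

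The peaks named here are the 3 largest changes in each direction among those of at least 5 CPM that passed, with counts in every library and no overlap between strains, and they were nearly all-or-none. Outside this rule, all 29 tested peaks of an unplaced scaffold were lower in D2, with a median log2 fold change of -8.65. The strains were mapped to different references, and the part of mapping in the scaffold peaks or the named peaks was not tested. An intergenic peak on chromosome 1 at chr1:171552185-171552644, whose nearest gene start is that of the immune receptor gene Cd244a, stood at 0.113, 0.141, 16.4 and 14.3 CPM (log2 fold change 6.90, SE 0.29). A pair of peaks in Sfi1 on chromosome 11 stood at 0.282 to 0.338 and 0.141 to 0.451 CPM in B6 and at 12.1 to 14.4 and 12.04 to 13.04 CPM in D2. Less accessible in D2 were an intronic peak of Lsamp, a neuronal adhesion molecule, at chr16:41308607-41310410 (12.5, 11.4, 0.242 and 0.0941 CPM), a peak at the start of Gm4152 and CR974462.6 on chromosome 17 (19.6, 22.6, 0.302 and 0.141 CPM) and one in Gm47283 on chromosome Y (10.4, 11.1, 0.302 and 0.0470 CPM). All 6 passed in each of 9 alternatives, including those that left out a library.

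The central 300 bases of 2 of these peaks are shown because by this rule they are the peak with the largest gain in D2 and the intronic peak with the largest loss. They are on the plus strand of the reference genome (GRCm38, mm10), which is the sequence of B6, and capitals mark CG dinucleotides. They are chr1:171552264-171552563 (2 CG) and chr16:41309358-41309657 (1 CG).
Peak near Cd244a: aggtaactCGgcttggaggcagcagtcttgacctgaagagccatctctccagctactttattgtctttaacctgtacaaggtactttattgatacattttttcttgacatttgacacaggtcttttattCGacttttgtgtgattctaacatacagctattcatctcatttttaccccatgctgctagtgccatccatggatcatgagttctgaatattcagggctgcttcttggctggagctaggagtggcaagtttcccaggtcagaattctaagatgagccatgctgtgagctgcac
Peak in Lsamp: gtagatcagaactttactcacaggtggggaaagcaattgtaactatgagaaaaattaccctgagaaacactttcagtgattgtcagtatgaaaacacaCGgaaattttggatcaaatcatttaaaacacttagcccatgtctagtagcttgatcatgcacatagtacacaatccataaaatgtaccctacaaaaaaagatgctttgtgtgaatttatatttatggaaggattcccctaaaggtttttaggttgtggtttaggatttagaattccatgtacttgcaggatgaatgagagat

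In or within 2 kb of the 12 CA3 markers lay 535 tested peaks, of which 8 were more and 18 less accessible in D2 (4.86%, against 5.03% of all peaks). Cpne4 held most of them, with 3 higher and 13 lower among 98 peaks. The promoter peak of Nectin3 stood at 62.5, 60.9, 70.9 and 69.6 CPM. It rose by 0.23 (SE 0.06, edgeR adjusted p = 0.00585) while the transcript differed by 0.02. Both D2 libraries were above both B6 libraries, but the call was lost with DESeq2 and whenever 1 library was left out (0.21 to 0.25 on the log2 scale, adjusted p from 0.000186 to 0.301 over 9 alternatives). Bok had 21.5, 21.98, 19.5 and 19.8 CPM at its promoter and Iyd 6.99, 6.20, 6.34 and 8.04 CPM, and neither passed. Homer3, whose transcript fell, had promoter accessibility of 12.3, 11.9, 13.5 and 13.7 CPM (log2 fold change 0.21, SE 0.11, edgeR adjusted p = 0.343).

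The promoter of Nectin3 is shown because its peak passed where its transcript did not. For symbols of at least 20 CPM that did not pass, the main promoter peak had a median log2 fold change of 0.12. The 250 bases before the RefSeq start (GRCm38.p6, minus strand, chr16:46496968-46497217) lie inside the peak chr16:46495960-46498794. In GENCODE vM21, used for the promoter peaks, the gene starts at position 46498525, so these bases lie within that gene entry. Capitals mark CG, of which there are 30, against a median of 6 over 32851 RefSeq promoters of this length.
Nectin3 promoter: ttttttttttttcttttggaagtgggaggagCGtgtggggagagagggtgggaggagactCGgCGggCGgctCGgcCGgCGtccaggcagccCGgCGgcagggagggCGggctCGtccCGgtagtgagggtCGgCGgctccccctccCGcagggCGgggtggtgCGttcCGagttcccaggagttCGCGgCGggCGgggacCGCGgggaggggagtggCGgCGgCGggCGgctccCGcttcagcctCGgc

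Among marker peaks of at least 5 CPM, 3 intronic ones passed besides. A peak of Grik4 at chr9:42792895-42793958 stood at 6.09, 7.19, 3.26 and 4.19 CPM (log2 fold change -0.76, SE 0.17), and one of Cpne4 at chr9:104928311-104929284 at 7.89, 7.54, 4.05 and 4.75 CPM (-0.75, SE 0.16). One of Spock1 at chr13:57755815-57756768 stood at 14.9, 12.05, 17.7 and 16.3 CPM (0.37, SE 0.10). The transcripts of all 3 genes did not pass. None of these 3 peaks passed with DESeq2, without D2 library 2 or without D2 library 3, and those of Grik4 and Spock1 did not pass without B6 library 3. The central 300 bases of the first 2 are shown in the same way, at chr9:42793276-42793575 (3 CG) and chr9:104928647-104928946 (6 CG), because they are the marker peaks with the largest change.
Peak in Grik4: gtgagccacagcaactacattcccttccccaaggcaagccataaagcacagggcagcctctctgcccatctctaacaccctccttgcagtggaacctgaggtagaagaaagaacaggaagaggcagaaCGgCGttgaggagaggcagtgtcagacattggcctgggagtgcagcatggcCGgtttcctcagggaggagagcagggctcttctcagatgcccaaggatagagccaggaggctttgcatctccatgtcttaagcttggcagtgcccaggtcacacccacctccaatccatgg
Peak in Cpne4: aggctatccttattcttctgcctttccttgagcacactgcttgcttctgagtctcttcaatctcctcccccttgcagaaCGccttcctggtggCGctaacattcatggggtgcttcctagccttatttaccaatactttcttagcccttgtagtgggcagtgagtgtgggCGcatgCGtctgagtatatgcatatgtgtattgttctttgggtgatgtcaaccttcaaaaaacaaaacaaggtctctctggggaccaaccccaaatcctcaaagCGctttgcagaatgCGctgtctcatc

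In the other lists the shares of peaks that passed were under the 5.03% of all peaks. For the mossy fibre synapse 19 of 1369 peaks were higher and 22 lower (2.99%), for intrinsic excitability 30 of 1070 and 14 (4.11%), and for transcription factors 6 of 1043 and 10 (1.53%). Of the main promoter peaks tested in these lists (21, 20 and 25), 4 passed besides that of Nectin3, where 7.22% of all peaks at gene starts did. Scn1a, a sodium channel gene, stood at 6.76, 7.12, 10.4 and 9.97 CPM (log2 fold change 0.60, SE 0.13, edgeR adjusted p = 0.000733), Kcnd3 at 25.8, 28.5, 29.8 and 32.1 CPM (0.25) and Zbtb20 at 57.1, 54.1, 68.6 and 61.2 CPM (0.26). Tshz2 stood at 4.17, 5.43, 2.54 and 2.92 CPM (-0.74, SE 0.20, edgeR adjusted p = 0.0104), and it was the 1 gene of the lists whose transcript and main promoter peak both passed, each lower in D2. All 4 calls were lost with DESeq2, without D2 library 2 and without D2 library 3, that of Scn1a and Kcnd3 without B6 library 2 that of Kcnd3, Zbtb20 and Tshz2 without B6 library 3 and that of Kcnd3 with at least 50 counts.

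**Figure D4:**
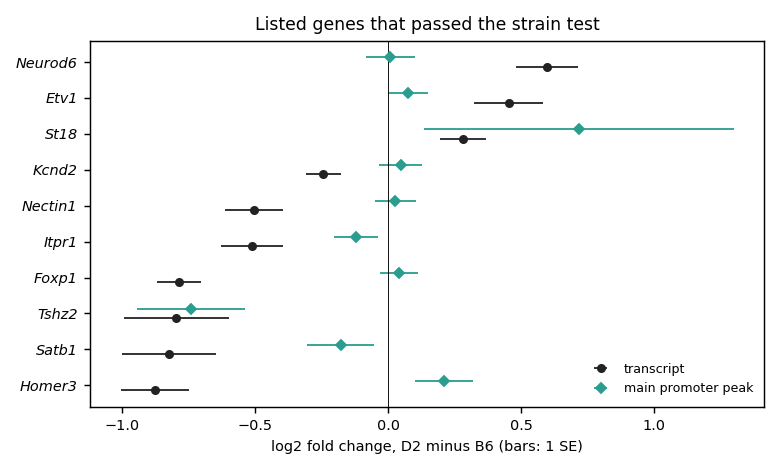
Strain difference (log2 fold change, D2 minus B6, bars 1 SE) of the transcript (black circles) and of the main promoter peak (green diamonds) for the 10 listed genes whose transcript passed. Transcripts run from -0.88 (Homer3) to 0.60 (Neurod6), while 8 of the promoter peaks lie between -0.18 and 0.21, that of Tshz2 is at -0.74 and that of St18 at 0.72 (SE 0.58).

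Transcript and promoter calls were set side by side for all symbols of at least 20 CPM. Of 765 symbols higher in D2 with a promoter peak, 11.8% had a promoter peak that was higher and 0.261% one that was lower. Of 918 symbols lower in D2, the shares were 6.64% and 1.85%, and of 4811 symbols that did not pass, 7.46% and 0.478%. The main promoter peak had a positive median log2 fold change in each group. It was 0.12 for symbols higher in D2, 0.07 for those lower and 0.12 for those that did not pass. Among the named transcripts with the largest changes, most promoters did not pass. The promoter of Sv2c stood at 13.5, 13.8, 13.3 and 12.3 CPM, that of Rnf121 at 23.6, 24.8, 25.3 and 22.2 CPM, that of Cox16 at 17.6, 19.9, 21.6 and 19.7 CPM and that of Mlycd at 19.7, 20.3, 20.8 and 19.8 CPM, with overlap between strains except at Sv2c, where D2 was slightly lower (log2 fold change -0.05, SE 0.11, edgeR adjusted p = 0.899). The promoter of Rhbdl1 was higher in D2 (22.7, 23.4, 25.5 and 27.5 CPM, log2 fold change 0.26, SE 0.08), opposite to its transcript. That call was lost with DESeq2, with at least 50 counts and whenever 1 library was left out (0.20 to 0.30 on the log2 scale).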

How the data were processed

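Reads were mapped by the authors with Cell Ranger 6.0.2 (snRNA-seq, introns included) and Cell Ranger ATAC 2.0.0 (snATAC-seq), to mm10 for B6 and to mm10 with DBA variants for D2. They removed likely doublets with DoubletFinder in both assays, merged peaks called per sample, clustered nuclei with Seurat 4.0.5 over both strains, transferred the names to snATAC-seq, and deposited raw counts summed per cell type and library, with the number of nuclei. The annotation release and use of strand are not given in the sources used here.

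Library numbers in the column names differ from the replicate numbers of the labels, so columns were mapped to strain only, and the 4 Exc-CA3 columns of each table were used. The other cell types' 120 columns were left out, so the planned comparisons of Exc-CA3 with other types were not run. Methylation samples were not analysed here. Libraries of a strain differed by more than counting noise (chi-square per feature 2.57 and 3.22 for transcripts, 1.15 and 1.33 for peaks).

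The deposited counts were tested with edgeR 4.0.16 (R 4.3.3): TMM, filterByExpr or at least 10 counts per peak, the quasi-likelihood test and Benjamini-Hochberg adjustment, on symbols counted in both strains within Exc-CA3 (the plan had named any cell type). DESeq2 1.42.0 was an alternative. The fits were tested on simulated data. CPM, computed here, used the same symbols, or all 300819 peaks. Genes are from GENCODE vM21 and sequences from GRCm38.

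Named were all list members, the 6 largest changes in each direction at 20 CPM or more (3 at 5 CPM or more for peaks) with an adjusted p under 0.05, counts in every library and no overlap between strains. Some list members are counted in the lists but not reported here by name. Other genes, partner symbols and promoters were chosen after their values were seen. The members and lists were chosen with earlier results of these data known.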

Additional observations from a re-analysis of the deposited data

How the results depend on the processing

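For transcripts, where 3216 symbols passed, DESeq2 called 1340, all symbols 5241, and an absolute log2 fold change of at least 1 left 1037. With 1 library left out 2241 to 2838 passed. For peaks, where 15008 passed, DESeq2 called 3642 and an absolute log2 fold change of at least 1 left 8567, and with 1 library left out 123 to 9263 passed. The cause was not tested, and leaving out a library also leaves 1 residual degree of freedom and 1 library that is assumed to vary like the other strain. RLE normalization, no filter beyond 1 count and, for peaks, at least 50 counts stayed within 1.5 times. For single named symbols 1170 values under an alternative kept their side of the threshold, 19 lost the call, 53 gained it and 0 reversed direction with a call. A change of direction where neither fit passed is counted among those that kept their side, as for Nr4a2 (-0.98 to 0.25 over 9 alternatives). For named peaks these were 1091, 48, 4 and 0. Settings fixed for comparisons with other cell types were not run, since those comparisons were not made.

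Same-numbered libraries were checked for pairing. Their deviations from the strain means correlated at 0.0325 for transcripts and 0.0270 for peaks, with 2 pairs, so the numbers were not taken to pair the samples. A replicate block gave 3727 transcripts and 16096 peaks. Calls that 1 library decided ranged from symbols of a few CPM to Hs3st4 and Kcnd2, above 1000 CPM, and the part of depth in them was not tested.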
